A study of Mus musculus with 6 samples.

Results

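Aminoacyl-tRNA synthetases, the enzymes that join each amino acid to its tRNA, were examined in induced brown adipocytes of U-IRX3ov and control mice. The set held 36 genes, taken by symbol from the 46095 rows of the table of read counts: 16 enzymes of mitochondria, 18 of the cytosol, and Gars and Kars, which serve both compartments. U-IRX3ov cells, titled KI in the labels, came from mice named for overexpression of IRX3 and were sequenced as 3 libraries. Control cells were sequenced as 3 libraries from mice of the control genotype. Mice of both groups were C57BL/6 and 5 weeks old, and their brown fat gave the stromal vascular fraction, a mix of preadipocytes with vascular and immune cells. Both cultures were induced for 8 days, with insulin, dexamethasone, rosiglitazone, triiodothyronine and IBMX at first, and then with insulin, rosiglitazone and triiodothyronine alone. The construct, the promoter that drives it, the number of mice behind a library, and any pooling of mice are not given in the sources here. P-values therefore measure the spread between these 6 libraries, which may be technical.

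A mammalian cell runs separate translation systems in the cytosol and in mitochondria, and each needs its own charged tRNAs. All synthetases are encoded in the nucleus. Enzymes whose symbols end in 2 are imported into mitochondria, where they serve the translation of the few respiratory chain and ATP synthase subunits that mitochondrial DNA encodes. Gars and Kars each make both a cytosolic and a mitochondrial enzyme. In the cytosol, several synthetases sit in a multi-synthetase complex. Many cytosolic synthetase genes are known targets of ATF4, the transcription factor of the amino acid response, through an element that joins half-sites of C/EBP and ATF proteins.

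Promoters of the synthetase genes were searched for motifs of factors known to act on translation or mitochondrial genes. RefSeq promoters of GRCm38.p6 (250 bases before the start site and 50 from it on) were matched for 27 of the 36 genes, 14 mitochondrial, 11 cytosolic and both shared ones. Those of Hars2, Pars2, Cars, Hars, Lars, Nars, Rars, Vars and Wars were not among them. The letters of 5 motifs were searched on both strands, and no motif holds the letters of another. TGATGNAA, the C/EBP-ATF composite element, stood in 0 of 14 mitochondrial and 4 of 11 cytosolic promoters and in that of Gars, against 4.06% of 27025 gene promoters of the same length. The 5 promoters that held it are shown first, as windows of 70 bases before to 30 from the start site on, written 5′ to 3′ along the gene with every motif found in the window on either strand in capitals.
Aars, chr8:111033772-111033871, plus strand: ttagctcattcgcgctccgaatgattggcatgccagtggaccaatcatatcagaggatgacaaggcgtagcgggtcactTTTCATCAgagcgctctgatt
Iars, chr13:49682060-49682159, plus strand: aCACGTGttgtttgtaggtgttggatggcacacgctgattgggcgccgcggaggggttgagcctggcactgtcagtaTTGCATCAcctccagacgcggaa
Tars, chr15:11399629-11399728, minus strand: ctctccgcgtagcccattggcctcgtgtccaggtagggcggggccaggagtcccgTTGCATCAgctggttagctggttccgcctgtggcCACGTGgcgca
Yars, chr4:129189833-129189932, plus strand: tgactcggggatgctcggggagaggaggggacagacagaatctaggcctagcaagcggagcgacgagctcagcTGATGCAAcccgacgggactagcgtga
Gars, chr6:55037931-55038030, plus strand: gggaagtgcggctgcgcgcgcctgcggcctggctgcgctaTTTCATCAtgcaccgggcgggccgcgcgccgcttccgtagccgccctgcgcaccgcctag
TTTCATCA, TTGCATCA and TGATGCAA in these windows are the composite element on one strand or the other. The promoter of Aars also held TTGCATCA, beginning 112 bases before the start site and so outside its window. CACGTG, in the windows of Iars and Tars, is the E-box that MYC binds. Next are the windows of the 6 mitochondrial enzymes with the largest fold changes among those with a promoter, to set beside them.
Cars2, chr8:11550742-11550841, minus strand: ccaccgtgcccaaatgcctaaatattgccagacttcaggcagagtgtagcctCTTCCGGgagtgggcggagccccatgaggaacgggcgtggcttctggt
Lars2, chr9:123366857-123366956, plus strand: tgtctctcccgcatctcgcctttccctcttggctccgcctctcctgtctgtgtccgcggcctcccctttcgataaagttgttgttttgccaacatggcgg
Fars2, chr13:36117573-36117672, plus strand: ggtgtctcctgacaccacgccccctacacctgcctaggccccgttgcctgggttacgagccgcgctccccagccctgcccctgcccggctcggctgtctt
Vars2, chr17:35667563-35667662, minus strand: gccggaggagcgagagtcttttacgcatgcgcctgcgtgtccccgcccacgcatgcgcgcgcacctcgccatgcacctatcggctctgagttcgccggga
Nars2, chr7:96951457-96951556, plus strand: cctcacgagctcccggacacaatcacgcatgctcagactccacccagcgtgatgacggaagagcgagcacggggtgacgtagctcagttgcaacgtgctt
Iars2, chr1:185329372-185329471, minus strand: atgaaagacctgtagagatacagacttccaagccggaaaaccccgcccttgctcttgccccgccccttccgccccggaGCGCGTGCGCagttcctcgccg
CTTCCGG in the window of Cars2 is CCGGAAG, the core of sites of ETS factors such as GABPA, on the other strand, and GCGCGTGCGC in that of Iars2 is the palindromic site of NRF1. GABPA and NRF1 are known regulators of nuclear genes for mitochondria. In the whole promoters, CCGGAAG was found in 4 of 14 mitochondrial (Cars2, Mars2, Rars2 and Sars2) and 3 of 11 cytosolic genes (Farsa, Mars and Sars) and in Gars and Kars, against 9.12% of all gene promoters. The NRF1 site was found in Iars2 and Mars2, in Farsb and Tars and in Kars, against 4.78% of all. CACGTG was found in Ears2 and in Aars, Farsb, Iars and Tars, against 7.24% of all, and TCAAGGTCA, the site of ERR receptors, in none of the 27, against 0.407% of all. A match describes these letters in this window and is not a measured binding site.

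Libraries held 20094799 to 26755870 counts, and 14757 genes had enough counts to be tested. Raw counts of Irx3, the homeobox gene of the genotype, were 163, 123 and 114 in U-IRX3ov libraries and 131, 142 and 138 in control libraries, or 6.16 ± 0.233 and 5.11 ± 0.321 CPM (CPM, each count divided by its scaled library total, SD, n = 3 each). Its log2 fold change of 0.27 ± 0.13 (SE) did not pass the test (edgeR adjusted p = 0.112), and it is not known if transcripts of the construct are counted as Irx3. Cell markers differed between the groups. All 5 brown adipocyte markers were higher, with summed levels of 380 to 450 CPM in U-IRX3ov and 48.1 to 54.9 CPM in control libraries, and all 7 general adipocyte markers were higher, with sums of 24759 to 25798 CPM against 17650 to 18848 CPM. Of 10 preadipocyte and fibroblast markers 9 were lower (4091 to 4440 CPM in U-IRX3ov, 6793 to 6958 CPM in control libraries), and all 10 macrophage and leukocyte markers were lower (152 to 227 CPM against 473 to 580 CPM). Endothelial markers were higher in 4 of 6 (38.6 to 44.0 CPM against 19.2 to 22.8 CPM), pericyte and smooth muscle markers lower in 5 of 6 with Cspg4 higher (2810 to 3121 CPM against 4547 to 4786 CPM), and markers of dividing cells lower in 2 of 5 (114 to 124 CPM against 136 to 144 CPM). For comparison, 20.2% of all genes tested were called higher and 21.1% lower in U-IRX3ov cells. No marker was at 0 in every library. These are bulk cultures, in which fewer cells of a type and less RNA per cell cannot be told apart, and the part of these cell markers in the results on synthetases was not tested.

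Most mRNAs of mitochondrial synthetases were higher in U-IRX3ov cells, while those of cytosolic synthetases had no common direction. Of 35 synthetases tested, 20 were higher and 2 lower at an adjusted p under 0.05 (edgeR quasi-likelihood test, adjusted over all genes), against 20.2% of all genes tested called higher and 21.1% called lower. With libraries scaled by their totals alone, 14 were higher and 6 lower while the median log2 fold change of all genes was -0.10. Of the 16 mitochondrial enzymes 13 rose and 0 fell, with a median log2 fold change of 0.40, ranging from 0.11 to 0.64. None of the 16 was lower at an unadjusted p under 0.05 either, nor by DESeq2 or limma-voom. Of the 17 cytosolic enzymes tested 6 rose, 2 fell and 9 did not pass, with a median of 0.00, ranging from -0.17 to 0.30. With library totals alone the cytosolic count was 2 higher and 6 lower, and the mitochondrial count 11 higher and 0 lower.

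**Figure D1:**
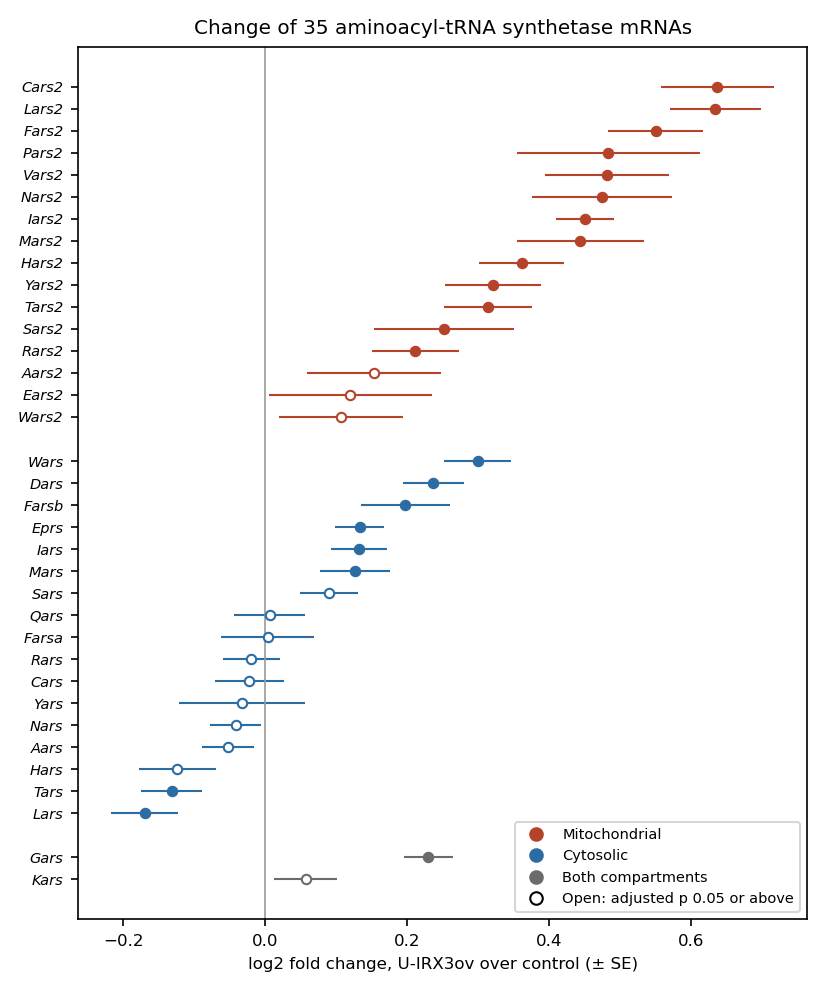
Log2 fold change of U-IRX3ov over control for each of 35 tested synthetases, with bars of 1 SE (n = 3 libraries a group). Filled points passed the edgeR test at an adjusted p under 0.05 and open points did not. The 16 mitochondrial enzymes lie between 0.11 and 0.64, and the 17 cytosolic enzymes between -0.17 and 0.30.

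The summed level of each class showed the same contrast in every library. Mitochondrial synthetases added up to 545, 555 and 546 CPM in the U-IRX3ov libraries and to 410, 421 and 414 CPM in the control libraries, a 1.32-fold higher mean (549 ± 5.32 and 415 ± 5.68 CPM, SD, n = 3 each). Cytosolic synthetases added up to 2028, 1987 and 1985 CPM in U-IRX3ov libraries and to 1940, 1952 and 1981 CPM in control libraries, a 1.02-fold higher mean. The groups were thus far apart for the mitochondrial sum, and the lowest U-IRX3ov library lay just above the highest control library for the cytosolic sum. That order of the cytosolic sums depends on the scaling of the libraries and turns round with library totals alone. The median log2 fold change of the cytosolic class was then -0.093, where that of all genes was -0.10. The mitochondrial sums stay apart in the same direction. Per 100 cytosolic counts there were 26.9, 27.9 and 27.5 mitochondrial ones in U-IRX3ov libraries and 21.2, 21.6 and 20.9 in control libraries, a ratio that library scaling does not touch.

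**Figure D2:**
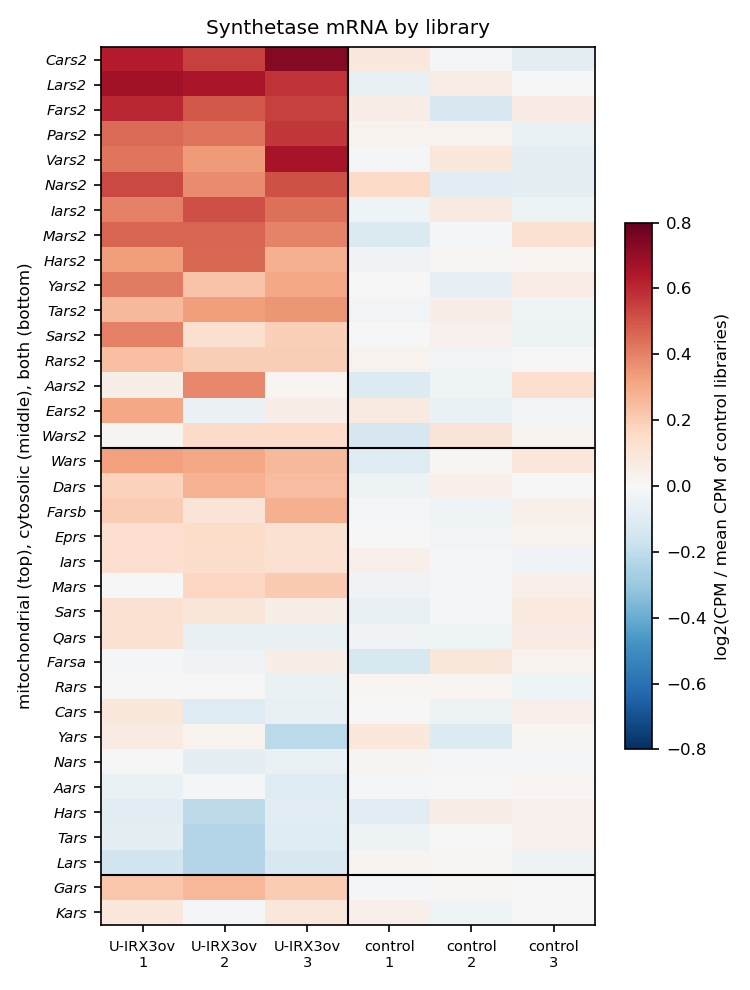
Each synthetase (rows) in each of the 6 libraries (columns, U-IRX3ov left of control), coloured by log2 of its CPM over the mean of the 3 control libraries. Of 16 mitochondrial enzymes in the upper block, 13 have every U-IRX3ov library above every control library. Among the 17 tested cytosolic enzymes in the middle block, 5 do, 2 have every U-IRX3ov library below, and 10 overlap. The shares of all genes tested were 24.9% above and 25.9% below.

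Among the mitochondrial enzymes, Cars2 and Lars2 had the largest fold changes. Cars2, the cysteine enzyme, had 23.2, 22.0 and 24.9 CPM in U-IRX3ov libraries and 15.96, 14.9 and 14.2 CPM in control libraries, 1.56-fold higher (log2 fold change 0.64 ± 0.08 SE, edgeR adjusted p = 1.98e-07). Lars2, the leucine enzyme, had 37.1, 36.6 and 34.8 CPM in U-IRX3ov libraries and 22.4, 24.3 and 23.2 CPM in control libraries, 1.55-fold higher (0.63 ± 0.06, adjusted p = 4.49e-09). For both genes the U-IRX3ov and control libraries did not overlap. Of the exon bases of Cars2, 422 (5.83%) lie opposite exons of Naxd, listed in the table by its older symbol Carkd, which rose by 0.18 ± 0.06 (adjusted p = 0.0164). Cars2 also has near-identical stretches of 171 bases in Rpn2 and 123 bases in Dennd4a. Those genes had up to 8891 and 2227 counts in a library, and the part of such stretches in the counts of Cars2 was not tested. Fars2, the mitochondrial phenylalanine enzyme, which works as a single chain, had 38.0, 35.2 and 36.5 CPM in U-IRX3ov libraries against 25.9, 22.9 and 26.1 CPM in control libraries (0.55 ± 0.07, adjusted p = 1.17e-07). It shares 8.72% of its exon bases with Nrn1 on the other strand, which had a log2 fold change of 0.37 and did not pass (adjusted p = 0.0653).

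Iars2, the isoleucine enzyme, had 180, 195 and 185 CPM in U-IRX3ov libraries against 134, 143 and 133 CPM in control libraries (log2 fold change 0.45 ± 0.04, edgeR adjusted p = 6.37e-10), the smallest p of any member. Its groups did not overlap, but 2034 of its exon bases (22.9%) lie opposite exons of Rab3gap2, whose log2 fold change was -0.11 ± 0.05 (adjusted p = 0.0764). Vars2, the valine enzyme, had 20.1, 18.9 and 23.6 CPM in U-IRX3ov libraries against 14.8, 15.8 and 14.2 CPM in control libraries (0.48 ± 0.09, adjusted p = 5.58e-05). U-IRX3ov library 3 was the highest, and the lowest U-IRX3ov library was still above all controls. An annotated antisense gene, Gm20483, lies opposite 465 of the exon bases of Vars2 (8.52%). Nars2, the asparagine enzyme, had 15.3, 13.8 and 15.1 CPM in U-IRX3ov libraries against 11.8, 9.97 and 10.1 CPM in control libraries (0.47 ± 0.10, adjusted p = 2.73e-04). Mars2, the methionine enzyme, had 17.2, 17.3 and 16.5 CPM in U-IRX3ov libraries against 11.5, 12.4 and 13.6 CPM in control libraries (0.44 ± 0.09, adjusted p = 1.95e-04). Pars2, the proline enzyme, had the fewest counts of the mitochondrial class, with 7.08, 6.98 and 7.64 CPM in U-IRX3ov libraries against 5.26, 5.27 and 4.97 CPM in control libraries (0.48 ± 0.13, adjusted p = 0.00325).

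Hars2, Yars2 and Tars2, the histidine, tyrosine and threonine enzymes, rose less. Hars2 had 44.2, 48.0 and 42.7 CPM in U-IRX3ov libraries against 34.3, 35.2 and 35.4 CPM in control libraries (log2 fold change 0.36 ± 0.06, edgeR adjusted p = 1.67e-05). Yars2 had 32.9, 28.9 and 30.5 CPM in U-IRX3ov libraries against 24.7, 23.6 and 25.7 CPM in control libraries (0.32 ± 0.07, adjusted p = 3.22e-04). Tars2 had 35.9, 37.8 and 38.4 CPM in U-IRX3ov libraries against 29.6, 31.2 and 29.3 CPM in control libraries (0.31 ± 0.06, adjusted p = 1.53e-04). In each of these the groups stood apart. Hars2 lies head to head with Hars on chromosome 18 and shares 195 exon bases with it on the other strand, 4.56% of its own.

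Sars2 and Rars2, the serine and arginine enzymes, passed with smaller changes. Sars2 had a mean of 13.3 ± 1.34 CPM in U-IRX3ov and 11.2 ± 0.294 CPM in control cells (SD, n = 3 each; log2 fold change 0.25 ± 0.10, edgeR adjusted p = 0.0422), and its call was lost in 9 of 15 alternative settings, among them DESeq2 (adjusted p = 0.0813) and the fits without U-IRX3ov replicate 1 (0.267) or without each of the 3 control replicates in turn (0.0640 to 0.0975). Rars2 had 33.9 ± 0.63 and 29.3 ± 0.506 CPM (0.21 ± 0.06, adjusted p = 0.00647), and lost its call with library totals alone (0.137). Aars2 (alanine, 0.15 ± 0.09), Ears2 (glutamate, 0.12 ± 0.12) and Wars2 (tryptophan, 0.11 ± 0.09) did not pass, with adjusted p of 0.208, 0.434 and 0.353, and their groups overlapped. Of the 13 calls, 11 held in all 15 alternatives. In the mitochondrial class, 13 of 16 had every U-IRX3ov library above every control library, against 24.9% of all genes tested.

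Of the cytosolic enzymes, Wars and Dars rose most. Wars, the tryptophan enzyme, which is known for its induction by interferon gamma, had 94.6, 93.2 and 90.2 CPM in U-IRX3ov libraries against 70.3, 75.9 and 79.9 CPM in control libraries (log2 fold change 0.30 ± 0.05, edgeR adjusted p = 8.45e-06). Dars, the aspartate enzyme of the multi-synthetase complex, had 98.2, 105 and 102 CPM in U-IRX3ov libraries against 84.1, 88.7 and 86.1 CPM in control libraries (0.24 ± 0.04, adjusted p = 4.54e-05). Groups were separate for both. Farsb, the beta subunit of the cytosolic phenylalanine enzyme, rose by 0.20 ± 0.06 (adjusted p = 0.0128). Its call was lost without U-IRX3ov replicate 3 (0.0757) and with library totals alone (0.204). Eprs, which carries the glutamate and the proline enzyme in a single chain, and Iars, the isoleucine enzyme, each rose by 0.13 ± 0.04 (adjusted p = 0.00297 and 0.00797) and lost their calls with library totals alone (0.428 and 0.490). Mars, the methionine enzyme, had 0.13 ± 0.05 (adjusted p = 0.0425) with overlapping groups, at 77.3, 86.7 and 89.3 CPM in U-IRX3ov and 75.7, 76.4 and 79.3 CPM in control libraries. The call of Mars was lost in 9 of 15 alternatives, including DESeq2 (0.0733), limma-voom (0.0775) and the fits without U-IRX3ov replicate 2 (0.157), U-IRX3ov replicate 3 (0.234), control replicate 1 (0.134) or control replicate 2 (0.108).

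Lars and Tars were the 2 synthetases that fell. Lars, the leucine enzyme of the complex, which also senses leucine for mTORC1, had 67.4, 63.3 and 68.3 CPM in U-IRX3ov libraries against 75.8, 75.5 and 72.7 CPM in control libraries (log2 fold change -0.17 ± 0.05, edgeR adjusted p = 0.00439). Every U-IRX3ov library was below every control library, and the call held in all 15 alternatives. Tars, the threonine enzyme, had 116, 104 and 115 CPM in U-IRX3ov libraries against 119, 123 and 126 CPM in control libraries (-0.13 ± 0.04, adjusted p = 0.0161). U-IRX3ov replicate 2 was its lowest library, and the call was lost without it (0.150) and without control replicate 3 (0.0521). In the cytosolic class 5 of 17 had U-IRX3ov libraries above all controls, against 24.9% of all genes tested, and 2 had them below, against 25.9%.

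The other 9 tested cytosolic enzymes did not pass. Sars (serine) had a log2 fold change of 0.09 ± 0.04 (edgeR adjusted p = 0.0842), and Hars (histidine) one of -0.12 ± 0.05 (adjusted p = 0.0706). Sars was called higher without control replicate 3 (0.0129). Hars was called lower without control replicate 1 (0.0219), with upper-quartile scaling (0.0396) and with library totals alone (0.00166). Qars (glutamine, 0.01), Farsa (the alpha subunit for phenylalanine, 0.00), Rars (arginine, -0.02), Cars (cysteine, -0.02), Yars (tyrosine, -0.03), Nars (asparagine, -0.04) and Aars (alanine, -0.05) lay between -0.05 and 0.01, and their groups overlapped. With library totals alone, where the median of all genes was -0.10, Aars (0.00156), Nars (0.00223) and Rars (0.0224) were called lower. Aars shares 1326 exon bases (14.3%) with Exosc6 on its own strand, which had 0.11 (adjusted p = 0.432). Iars has a near-identical copy, Gm4849, over 1656 bases, which had at most 8 counts in a library. Eprs and Yars share shorter near-identical stretches with many other genes, some of which had many counts.

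Gars and Kars, which serve both systems, differed in their calls. Gars, the glycine enzyme, had 377, 389 and 372 CPM in U-IRX3ov libraries against 321, 327 and 323 CPM in control libraries, 1.17-fold higher with no overlap (log2 fold change 0.23 ± 0.03, edgeR adjusted p = 3.96e-06), and its call held in all 15 alternatives. Kars, the lysine enzyme, had 84.3, 78.7 and 84.5 CPM in U-IRX3ov libraries against 81.6, 77.4 and 79.1 CPM in control libraries (0.06 ± 0.05, adjusted p = 0.335), with overlap. Counts per gene do not separate the cytosolic and mitochondrial forms of either enzyme. The difference between Gars and Kars was not tested.

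Vars, the cytosolic valine enzyme, was not tested. It had raw counts of 16, 2 and 0 in U-IRX3ov libraries and 7, 6 and 0 in control libraries. Vars lies at chr17:35000987-35016322 of GRCm38, and 19 of 21 protein-coding neighbours with rows within 100 kb had at most 10 counts in every library, so that these counts give no level of Vars.

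Split by known roles, the cytosolic and shared enzymes gave group medians between -0.03 and 0.09 on the log2 scale. Of the 8 members of the multi-synthetase complex (Dars, Eprs, Iars, Kars, Lars, Mars, Qars and Rars) 4 rose and 1 fell, with a median log2 fold change of 0.09. Outside the complex 2 of 10 tested cytosolic enzymes rose and 1 fell, with a median of -0.03. Of the 12 known ATF4 targets (Aars, Cars, Eprs, Gars, Iars, Lars, Mars, Nars, Sars, Tars, Wars and Yars) 5 rose and 2 fell, with a median of 0.03, and of the 7 other cytosolic and shared enzymes tested 2 rose and 0 fell, with a median of 0.01. Differences between these groups were not tested. Nor were their counts tested against the shares of all genes tested, 20.2% called higher and 21.1% called lower. Of the 5 genes whose promoters held TGATGNAA, shown above, Gars and Iars rose, Tars fell, and Aars and Yars did not pass.

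Setting the mitochondrial enzyme against the cytosolic enzyme of the same amino acid in each library removed library scaling from the comparison. Of 16 pairs, which count Fars2 and Eprs in 2 pairs each, 14 had a higher ratio of raw counts in U-IRX3ov cells, with a median log2 difference of 0.35. Lars2 had 54.6 ± 3.42 counts per 100 of Lars in U-IRX3ov and 31.2 ± 1.43 in control cells (SD, n = 3 each), a log2 difference of 0.80. Cars2 had 28.9 ± 2.49 per 100 of Cars in U-IRX3ov and 18.2 ± 1.35 in control cells, a log2 difference of 0.66. These were the largest differences of the 16, and in both the libraries of the groups were apart. Fars2 had 107 ± 4.7 per 100 of Farsa in U-IRX3ov and 74.1 ± 10.1 in control cells, and 96.1 ± 5.11 against 75.1 ± 4.14 per 100 of Farsb. Hars2 had 81.4 ± 8.98 per 100 of Hars in U-IRX3ov and 58.0 ± 2.31 in control cells, and Tars2 33.5 ± 2.7 per 100 of Tars against 24.5 ± 1.06. In 12 pairs every U-IRX3ov library had a higher ratio than every control library, and in 3 pairs (Aars2/Aars, Sars2/Sars and Ears2/Eprs) the groups overlapped. Wars2/Wars went the other way, with 17.9 ± 1.28 per 100 in U-IRX3ov and 20.4 ± 1.16 in control cells, a log2 difference of -0.19 without overlap.

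With 3 libraries a group, 0.1 is the smallest p of an exact two-sided permutation test. It was reached by 13 of the 16 pairs, and no pair passed after Benjamini-Hochberg adjustment over the 16 (smallest adjusted p = 0.123, exact permutation test). Limma on the log2 ratios, which shares the spread between pairs, called 14 of 16, of which Wars2/Wars was lower and the others higher, and did not call Sars2/Sars or Ears2/Eprs. Since the enzymes differ in transcript length, these ratios compare the groups and not the levels of the enzymes.

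**Figure D3:**
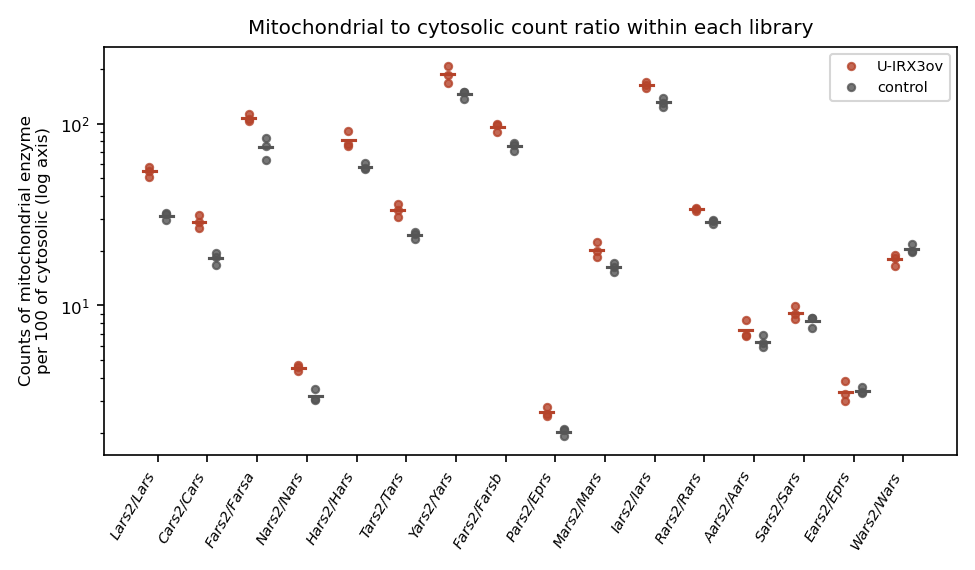
Raw counts of the mitochondrial enzyme per 100 counts of the cytosolic enzyme of the same amino acid (log axis) in each library, for 16 pairs, with U-IRX3ov left of control in each pair. Points are libraries and lines are means of 3. In 12 pairs all U-IRX3ov points lie above all control points, and in Wars2/Wars they lie below.

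Per length, the mitochondrial enzymes had a lower median level than the cytosolic ones. In CPM per kilobase of the principal transcript, the 16 mitochondrial enzymes had a median level of 8.20 in U-IRX3ov and 5.99 in control cells, and the 17 tested cytosolic enzymes one of 28.7 in U-IRX3ov and 30.4 in control cells. The shared Gars was the highest of the 35 at 160 CPM per kilobase in U-IRX3ov and 136 in control cells, followed by Nars at 118 and 121. Lowest was Mars2, at 1.51 CPM per kilobase in U-IRX3ov and 1.11 in control cells, with an annotated transcript of 11294 bases. In 14 of 16 pairs the mitochondrial enzyme was below its cytosolic partner on this scale in both groups. The exceptions were Yars2, at 346% of Yars in U-IRX3ov and 269% in control cells, and Iars2, at 132% of Iars in U-IRX3ov and 106% in control cells. Levels per length rest on a single annotated transcript a gene, and the files do not show which transcript the counts came from.

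**Figure D4:**
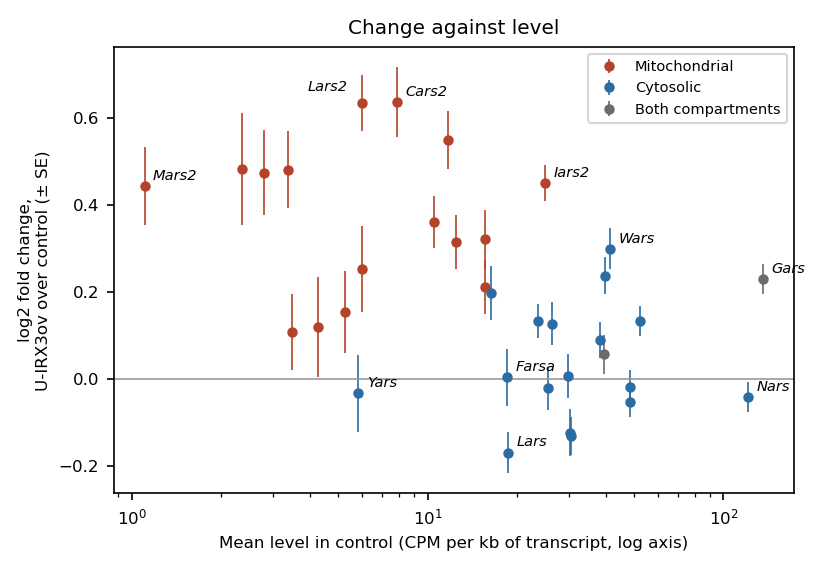
Log2 fold change of U-IRX3ov over control (bars of 1 SE, n = 3 a group) against the mean control level in CPM per kilobase of transcript (log axis) for 35 synthetases. Mitochondrial enzymes lie from 1.11 to 24.99 CPM per kilobase in control and cytosolic ones from 5.84 to 121. In the range where both occur, Lars2 and Cars2 stand above 0.6 on the log2 axis and Lars lies below 0. In the same range mitochondrial Rars2 (0.21) and cytosolic Farsb (0.20) lie close together.

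Other genes of mitochondrial translation rose as well. Of 11 mitochondrial translation factors 8 (72.7%) rose and 0 fell, with a median log2 fold change of 0.40. Among all genes tested, 20.2% were called higher and 21.1% lower. Gfm1, an elongation factor that moves the mitochondrial ribosome along, had 217 ± 4.24 CPM in U-IRX3ov and 144 ± 1.83 CPM in control cells (SD, n = 3 each; 0.59 ± 0.04 SE, edgeR adjusted p = 3.18e-13). Tufm, which brings charged tRNA to the mitochondrial ribosome, had 80.9 ± 0.723 CPM in U-IRX3ov and 55.9 ± 0.956 CPM in control cells (0.53 ± 0.05, adjusted p = 1.88e-10). Guf1 (0.67 ± 0.06) and Gfm2 (0.49 ± 0.05), a back-translocase and a recycling factor of the mitochondrial ribosome, also rose. These factors thus had the same median as the mitochondrial synthetases, to 2 decimals.

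Genes that cut and modify mitochondrial tRNA gave 12 of 18 higher (66.7%) and 0 lower, with a median log2 fold change of 0.24. With library totals alone they gave 7 higher and 2 lower. The shares of all genes tested were 20.2% higher and 21.1% lower. Hsd17b10 and Trmt10c, subunits of the mitochondrial RNase P that frees tRNA 5′ ends, rose by 0.38 ± 0.05 and 0.29 ± 0.06 on the log2 scale (edgeR adjusted p = 2.29e-07 and 1.10e-04). Osgepl1 and Trmu, which modify mitochondrial tRNA in or next to the anticodon, rose by 0.64 ± 0.08 and 0.51 ± 0.07 (adjusted p = 3.90e-07 and 1.14e-06). Mitochondria lack a glutamine enzyme and amidate glutamate charged by Ears2 instead. Subunits of that amidotransferase rose: Gatb by 0.50 ± 0.08 (adjusted p = 1.25e-05), Qrsl1 by 0.32 ± 0.10 (0.0105) and Gatc by 0.16 ± 0.06 (0.0454), while Mtfmt, which formylates the initiator methionyl-tRNA, had 0.10 ± 0.10 (0.474). Of these 4 genes, 2 were called in each of 5 fits that left out 1 library, 1 without U-IRX3ov replicate 3, 2 by DESeq2 and with the replicate block, and 1 with library totals alone. Outside the 36, Tarsl2, a further threonine enzyme of the cytosol, had 18.9 ± 1.7 CPM in U-IRX3ov and 11.2 ± 0.915 CPM in control cells (0.75 ± 0.09, adjusted p = 2.26e-07).

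The cytosolic translation genes did not share this direction. Of 19 cytosolic translation factors 2 (10.5%) rose and 3 fell, with a median log2 fold change of 0.01. Shares of all genes tested were 20.2% called higher and 21.1% called lower. With library totals alone 1 factor rose and 9 fell. Eif1a (0.25 ± 0.04) and Eif4e (0.15 ± 0.04), both initiation factors, rose, and Eef1b2 (-0.24 ± 0.04), Eef1g (-0.23 ± 0.04) and Eef1d (-0.22 ± 0.04), the exchange factor subunits of elongation factor 1, fell. The 3 scaffolds of the multi-synthetase complex, Aimp1 (-0.01 ± 0.06), Aimp2 (-0.05 ± 0.08) and Eef1e1 (-0.05 ± 0.07), did not pass in edgeR, and 0 of them had an unadjusted p under 0.05 or a call by DESeq2 or limma-voom. Of 7 genes for editing of mischarged tRNA and release of peptidyl-tRNA, Ptrh2 (log2 fold change 0.28 ± 0.08, edgeR adjusted p = 0.00661) and Prorsd1 (0.28 ± 0.09, 0.0106) rose. Of these 2 rises, 1 was called without U-IRX3ov replicate 2 or without control replicate 1, and 0 without control replicate 2.

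**Figure D5:**
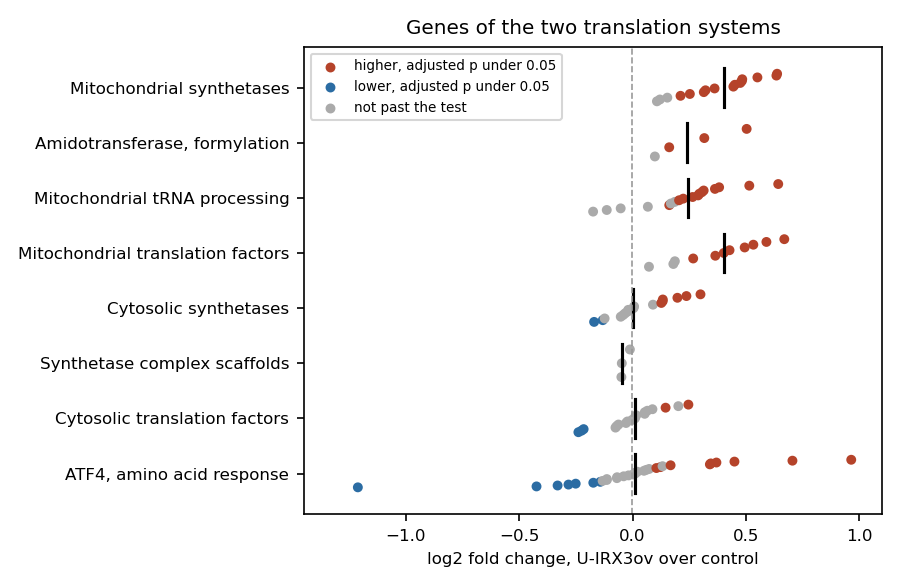
Log2 fold change of U-IRX3ov over control for each tested gene of 8 lists (points), coloured by its edgeR call, with a black line at each list's median and a dashed line at the median of all genes tested. Medians of the mitochondrial lists lie between 0.24 and 0.40, and those of the cytosolic lists and of the ATF4 and amino acid response genes between -0.05 and 0.01.

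ATF4 and its known response genes had no common direction. Of 31 such genes 9 (29.0%) rose and 7 fell, with a median log2 fold change of 0.01, against 20.2% of all genes tested called higher and 21.1% called lower. With library totals alone 6 rose and 11 fell. The 6 fits that left out 1 library gave 6 to 8 rises and 6 to 7 falls. Vldlr, a lipoprotein receptor, had 183 ± 7.38 CPM in U-IRX3ov and 112 ± 1.99 CPM in control cells (SD, n = 3 each; 0.70 ± 0.04, edgeR adjusted p = 4.14e-14). Slc1a5, a glutamine transporter, rose by 0.34 ± 0.03, Eif4ebp1, a brake on cap-dependent initiation, by 0.34 ± 0.04, and Shmt2, the mitochondrial serine hydroxymethyltransferase, by 0.37 ± 0.05. Atf4 itself, named beside these whatever its value, had -0.07 ± 0.04 (adjusted p = 0.197). Among the kinases and phosphatase subunits that act on eIF2alpha upstream of ATF4, Ppp1r15b rose (0.19 ± 0.03) and Eif2ak2, the kinase PKR, fell (-0.21 ± 0.06), while Eif2ak1 (0.08), Eif2ak3 (-0.09), Eif2ak4 (0.11) and Ppp1r15a (-0.06) did not pass.

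Of 8 regulators of mTORC1 and MYC, Mtor had 94.8 ± 4.59 CPM in U-IRX3ov and 61.5 ± 5.89 CPM in control cells (SD, n = 3 each; log2 fold change 0.62 ± 0.06, edgeR adjusted p = 3.49e-08). Myc (0.41 ± 0.06, adjusted p = 1.30e-06) and Tsc2 (0.12 ± 0.04, 0.0248) rose too, and Rheb had -0.09 ± 0.04 (0.0433), a call lost in each of the 6 fits that left out 1 library. Of 11 tested interferon gamma response genes, set beside Wars, Cxcl10 rose (0.88 ± 0.22, adjusted p = 0.00214) and Irf8 (-1.03 ± 0.23), Gbp2 (-0.50 ± 0.14) and Cxcl9 (-0.47 ± 0.16) fell. Among all genes tested, 20.2% were called higher and 21.1% lower, and the median of the interferon gamma list was -0.08. Its count of falls was 1 without U-IRX3ov replicate 1 or control replicate 3 and 5 without U-IRX3ov replicate 3, and its count of rises was 2 in each fit that left out a U-IRX3ov replicate or control replicate 3. The list also held 6 genes too low to test.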

How the data were processed

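RNA was sequenced in 6 libraries, 3 of U-IRX3ov and 3 of control cells, grouped by the genotype in the labels. The authors deposited raw read counts per gene symbol, not normalized. Reads were aligned with HISAT2 2.0.4 to mm10, per the submitters' processing notes. For the counting program, its annotation and strandedness the sources used here give nothing, so reads of overlapping genes cannot be told apart. Library descriptions end in "combined", with no word on what was joined. The table had 46095 rows, 24947 with a count.

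The members and the lists were chosen with earlier results of these data known. Counts were filtered with filterByExpr, which kept 14757 genes, scaled by TMM (factors of 0.958 to 0.973 in U-IRX3ov and 1.03 to 1.04 in control libraries) and compared between groups with no covariate in edgeR 4.0.16 (R 4.3.3; glmQLFit with robust=TRUE and glmQLFTest), with Benjamini-Hochberg adjusted p-values over the whole table. Where no tool is named, an adjusted p comes from there. SE values are the absolute log2 fold change over the square root of F. The biological coefficient of variation was 5.12%. CPM are TMM-scaled. Members past the test with a log2 change of at least 0.3 in size, and Gars and Kars, are given by library, and per-library values of Wars, Dars, Mars, Lars and Tars were added after their values were seen. Of other lists, up to 4 genes past the test with the smallest p are named, with all genes of lists of up to 6. Eif4e and Atf4 fall outside that rule, and 2 genes of the other lists are not reported here. Members are named by symbol in the authors' table, and positions, exons and lengths are from GENCODE M21 on GRCm38. Near-identical copies (BLAST 2.17.0) align over at least 100 bases at 95% identity or more. Alternatives were DESeq2 1.42.0, its size factors, upper-quartile scaling, library totals alone, limma-voom (limma 3.58.1), other filters on low counts, an adjusted p of 0.01, a replicate block and each library left out. The scripts were tested on simulated data. Chi-square per degree of freedom was 65.7 to 76.8 between libraries of U-IRX3ov and control and 3.02 to 5.20 between replicates. Deviations of same-numbered libraries correlated at 0.0222 to 0.0745, and those of differently numbered ones at -0.0678 to 0.0190. Every same-numbered value was thus the higher, though all were small. The labels do not say that numbers pair libraries, so pairing was used only in the replicate block and the sign flips.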

Additional observations from a re-analysis of the deposited data

How the results depend on the processing

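The count of 13 mitochondrial synthetases higher stayed between 11 and 13 and that of 0 lower at 0 in all settings tried. Library totals alone gave 6 synthetases lower in place of 2, all 6 cytosolic, 2 cytosolic ones higher in place of 6, and medians of -0.093 (cytosolic) and 0.31 (mitochondrial) in place of 0.00 and 0.40, where the median of all genes was -0.10. At an adjusted p of 0.01, 1 synthetase was lower, a cytosolic one. Leaving out 1 library gave 1 to 3 lower (1 without U-IRX3ov replicate 2 or control replicate 3), all cytosolic, and 4 to 7 cytosolic ones higher. Limma on the log2 ratios called 14 pairs, Wars2/Wars lower and the others higher, where the exact test, whose smallest p is 0.1, called 0. With the replicate number as a replicate block, 13 mitochondrial synthetases were higher and 6 cytosolic ones higher and 2 lower, as without it. Sign flips within replicate numbers cannot give a p under 0.25 for a pair. No value reversed in sign among the called results. With 3 libraries a group, a synthetase that did not pass is not shown to be the same in both groups, and Vars was not measured.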
